A study of Mus musculus with 12 samples.

Results

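The genes described are 50 cell cycle and mitosis genes, taken by name from the deposited RNA-seq counts of cells labelled as mouse glomerular endothelial cells (GEC): 17 genes of DNA replication and 33 genes of mitosis. Cells were sorted from glomeruli by a dim or a bright tdTomato (tdT) signal, and the dim tdT table held 48 of the 50 genes among 17811, and the bright tdT table held 49 of them among 17521. *Ttk* was in neither table and *Hmmr* only in the bright tdT table. Each of 6 mice gave a dim tdT and a bright tdT library, so that there were 12 libraries in 4 groups of 3. The mice were 4 months old, on a C57BL/6 background, and all carried the *Tek*-Cre driven tdT reporter, 3 of them wild type (WT) and 3 *Col4a5* knockouts as a model of Alport syndrome (AS). *Tek*-Cre can also recombine in blood lineages, and the sort used the tdT signal, so the libraries are of sorted populations and not of single cells.

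A cell that divides first licenses its origins of replication, on which Cdc6 and Cdt1 load the ring of Mcm proteins, and then copies its DNA with the help of the clamp Pcna and of nucleotides made by ribonucleotide reductase, thymidylate synthase and thymidine kinase. The transcription factor E2F1 drives many of these genes in late G1 and S phase. Genes of G2 and mitosis are held down in resting cells by the DREAM complex and are switched on later with the help of Mybl2 and Foxm1: Cdk1 with its cyclins starts mitosis, Aurora and Polo kinases, kinesins and the centromere proteins build and move the spindle, and the checkpoint proteins Bub1, Bub1b, Mad2l1 and Ttk hold the cell until the chromosomes are attached. Most endothelial cells of an adult kidney are quiescent and express few of these genes.

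Promoters are shown here because the CHR element is known for genes of G2 and mitosis, and E2F-type sites for genes of replication. RefSeq promoters on GRCm38.p6, 250 bases before to 50 after the start, were found for 42 of the 50 genes. The CHR element TTTGAA was searched on both strands together with CCAAT and 4 E2F-type strings (first TTGGCGC, second TTCCCGC, then TTCGCGC and lastly TTGCCGC), whose matches can overlap. TTTGAA was present in 21 of 28 mitosis promoters (75.0%) and in 1 of 14 replication promoters (7.14%), beside 20.2% of all 27025 genes in the table. CCAAT was present in 23 of 28 and 8 of 14 against 41.1% of all genes, and an E2F-type string in 6 of 28 and 8 of 14 against 10.9%. In the 3 mitosis promoters and the replication promoter below, capitals mark every match to these letters.
*Cdk1* (chr10:69352863-69353162, minus strand): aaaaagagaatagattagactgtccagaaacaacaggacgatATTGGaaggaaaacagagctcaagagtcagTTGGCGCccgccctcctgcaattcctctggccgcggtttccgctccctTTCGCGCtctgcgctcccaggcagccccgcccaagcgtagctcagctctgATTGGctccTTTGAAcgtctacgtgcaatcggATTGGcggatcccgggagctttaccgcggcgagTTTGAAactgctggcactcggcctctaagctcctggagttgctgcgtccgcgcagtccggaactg
*Bub1b* (chr2:118597961-118598260, plus strand): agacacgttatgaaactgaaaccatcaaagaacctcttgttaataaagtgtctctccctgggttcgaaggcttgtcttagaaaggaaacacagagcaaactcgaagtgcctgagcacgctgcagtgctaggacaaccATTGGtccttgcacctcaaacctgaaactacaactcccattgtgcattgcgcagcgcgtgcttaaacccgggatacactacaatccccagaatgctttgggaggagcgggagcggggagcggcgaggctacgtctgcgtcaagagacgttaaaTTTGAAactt
*Mki67* (chr7:135716330-135716629, minus strand): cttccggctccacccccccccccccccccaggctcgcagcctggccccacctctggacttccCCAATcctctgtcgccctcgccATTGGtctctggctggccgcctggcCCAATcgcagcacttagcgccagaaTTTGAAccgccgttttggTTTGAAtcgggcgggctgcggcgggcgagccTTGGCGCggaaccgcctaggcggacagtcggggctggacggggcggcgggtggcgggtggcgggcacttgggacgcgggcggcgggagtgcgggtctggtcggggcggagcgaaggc
*Mcm6* (chr1:128359656-128359955, minus strand): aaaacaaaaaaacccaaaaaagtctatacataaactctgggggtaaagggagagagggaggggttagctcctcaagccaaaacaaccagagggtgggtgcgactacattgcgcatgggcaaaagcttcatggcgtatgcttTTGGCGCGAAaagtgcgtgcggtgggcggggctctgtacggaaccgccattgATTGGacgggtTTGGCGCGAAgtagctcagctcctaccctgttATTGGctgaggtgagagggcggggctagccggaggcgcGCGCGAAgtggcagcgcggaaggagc
*Cdk1* held 2 TTTGAA and 2 E2F-type matches, *Mki67* 2 and 1, *Bub1b* 1 and 0, and *Mcm6* 0 TTTGAA and 5 E2F-type matches. A match describes the letters in the window and is not evidence of a bound factor.

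Counts on genes were 11440169 to 13923267 per dim tdT and 13674045 to 15074909 per bright tdT library. Levels are given as CPM, counts scaled to a common library size, after edgeR's TMM scaling of all 12 libraries, and 1 count was worth 0.0633 to 0.0877 CPM. *Col4a5*, the targeted gene, counted 771, 439 and 877 in WT-dim tdT against 51, 24 and 17 in the AS-dim tdT libraries, but 158, 69 and 78 in the WT-bright tdT against 43, 104 and 55 in the AS-bright tdT libraries, which overlap. The fold change was -4.69 on the log2 scale in dim tdT (adjusted p = 0.00982) and -0.60 in bright tdT (adjusted p = 0.495), so the targeted gene did not separate the genotypes in the bright tdT libraries. Markers of the sorted cells differed between the subpopulations: 14 endothelial markers summed to 11057 to 17018 CPM in WT-bright tdT and 741 to 1385 CPM in WT-dim tdT libraries, while 20 leukocyte markers such as *Ptprc* summed to 55.1 to 101 CPM in WT-bright tdT and 9020 to 15593 CPM in WT-dim tdT libraries. The dim tdT libraries therefore carried the defining markers of leukocytes at far higher levels than those of endothelium, against their label. In bulk RNA, more cells of a type and more RNA per cell cannot be told apart.

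Replication genes were measured well above mitosis genes. Per kilobase of exon, the 17 replication genes had a median of 1.95 CPM in WT-dim tdT and 1.65 CPM in WT-bright tdT cells, and the 31 mitosis genes found in both subpopulations had 0.318 and 0.202 CPM. In WT-bright tdT cells, 14 of these 31 mitosis genes had a mean level under 1 CPM, and in AS-bright tdT cells 8 did. The highest level per kilobase in WT-bright tdT cells was that of *Pcna*, at 103 CPM, and the highest of a mitosis gene that of *Ccnb2*, the B-type cyclin, at 3.83 CPM. In dim tdT cells, *Cenpa*, the centromeric histone H3 variant, stood far above the other mitosis genes, at 17.9 CPM per kilobase in WT and 26.7 in AS, and the kinesin of the central spindle *Kif23* followed with 6.71 in WT and 5.29 in AS. Together these 2 genes took 70.5% to 73.6% of the summed CPM of the mitosis genes in WT-dim tdT and 52.5% to 65.8% in AS-dim tdT libraries, and 15.6% to 24.6% in bright tdT libraries. *Mcm7*, *Pcna* and *Mcm3* likewise took 56.7% to 85.6% of the replication sum. These genes were singled out after their values had been seen.

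Without *Cenpa* and *Kif23*, the mitosis genes summed to 55.6, 76.0 and 49.5 CPM in the WT-dim tdT and 120, 121 and 161 CPM in the AS-dim tdT libraries. In bright tdT libraries the sum, over 30 genes against 29 in dim tdT, was 49.0, 51.8 and 39.2 CPM in WT and 90.0, 100.1 and 107 CPM in AS. All 3 AS libraries lay above all 3 WT libraries in both subpopulations. Without *Mcm7*, *Pcna* and *Mcm3*, the replication genes summed to 158, 176 and 188 CPM in WT-dim tdT, 227, 208 and 225 CPM in AS-dim tdT, 85.5, 113 and 105 CPM in WT-bright tdT and 134, 146 and 142 CPM in AS-bright tdT libraries, again with no overlap between genotypes. With those 3 genes included, the replication sums overlapped, at 558 to 1082 CPM in WT-dim tdT, 524 to 584 CPM in AS-dim tdT, 524 to 595 CPM in WT-bright tdT and 586 to 631 CPM in AS-bright tdT libraries. No p is given for these sums, and the choice of genes to leave out was made with the values known.

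**Figure D1:**
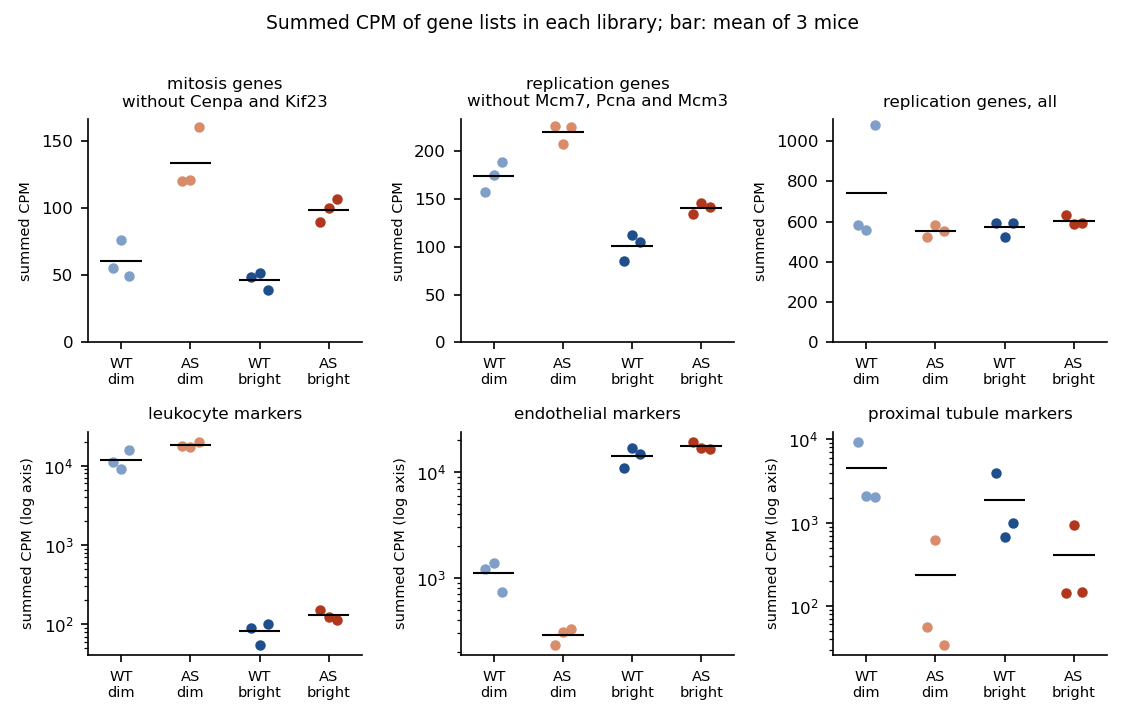
Summed CPM of gene lists in each of 12 libraries, by group on the x axis, with points for mice and bars for the mean of 3. The AS points lie above the WT points for the mitosis genes without Cenpa and Kif23 (120 to 161 against 49.5 to 76.0 CPM in dim tdT), whereas the leukocyte and endothelial marker sums on log axes separate dim from bright tdT libraries. The leukocyte sums are over 13 markers in bright and 20 in dim tdT libraries, and the mitosis sums over 30 and 29 genes.

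AS over WT within the bright tdT cells asks how the knockout changed the endothelial fraction. *Cdk1*, the kinase that starts mitosis, was the gene that rose: it had 41, 19 and 35 counts in the WT-bright tdT against 241, 200 and 284 in the AS-bright tdT libraries. That is 2.08 ± 0.648 CPM (SD, n = 3) against 17.1 ± 3.83 CPM (SD, n = 3), with every AS library above every WT library. The log2 fold change was 2.94 (standard error 0.41), with an adjusted p = 0.0291 in the quasi-likelihood test of edgeR, Benjamini-Hochberg adjusted over 14396 genes. *Cdk1* lies on chromosome 10 from 69335146 to 69352938, minus strand of GRCm38, and no other annotated gene overlaps it. It was the sole gene called among 38 of the 50 that passed the filter on low counts, where 0.452% of all genes tested were called, 0.188% higher and 0.264% lower in AS. The call depends on the version of the fit, which was chosen after both results had been seen: with edgeR's version 3 fit the adjusted p was 0.0517. The call ended in the fit of all 12 libraries as well (adjusted p = 0.0605). It also ended without WT-bright tdT library 3 (adjusted p = 0.0728) and without AS-bright tdT library 1 or 3 (0.219 and 0.134), while the log2 fold change stayed between 2.70 and 3.17 with any library left out. Without each of these 3 libraries, 0 of all genes were called, as with the version 3 fit. Proximal tubule markers summed to 671 to 3997 CPM in WT-bright tdT and 144 to 941 CPM in AS-bright tdT libraries, and the 13 leukocyte markers found in bright tdT to 55.1 to 101 CPM and 112 to 153 CPM. With the mean of the proximal tubule markers as a covariate *Cdk1* was at 2.65 (adjusted p = 0.153), and with that of the leukocyte markers 3.15 (adjusted p = 0.0066).

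The other mitosis genes lay mostly above 0 without passing the adjusted threshold in this test, while DESeq2 also called *Top2a*, and edgeR's likelihood ratio test *Top2a*, *Cenpf* and *Aurkb*. Of all genes, DESeq2 called 7.76% and the likelihood ratio test 6.23%. Markers of other cells moved with the genotype as well: 7 of 8 podocyte markers lay above 0 with a median of 0.90, and 12 of 14 endothelial markers with a median of 0.39, and their part in the mitosis values was not tested. Of 22 mitosis genes tested, 20 had a positive log2 fold change, with a median of 0.89 beside -0.03 over all genes, of which 47.7% lay above 0. At an unadjusted p under 0.05, 9 were higher, where 9.98% of all genes were. Mitosis and replication genes together, 13 of 38 passed at that p in either direction, and this fell to 6 of 38 with the leukocyte covariate (17.8% of all genes), 6 of 38 with the proximal tubule covariate (9.02%), 8 of 43 without WT-bright tdT library 3 (18.1%) and 8 of 38 without AS-bright tdT library 2 (22.6%). Among the 32 with any row, tested or not, 29 lay above 0. A gene can pass the filter through its AS level alone, so these counts describe the list. *Top2a*, the topoisomerase that untangles chromosomes, had 24, 29 and 5 counts in WT against 96, 112 and 42 in AS (log2 fold change 2.10, standard error 0.60, adjusted p = 0.1). *Cenpf*, a kinetochore protein of G2, had 0, 8 and 0 counts in WT against 11, 45 and 33 in AS (3.41, standard error 1.01, adjusted p = 0.094). The kinase of the passenger complex, *Aurkb*, had 0, 9 and 0 in WT against 13, 26 and 18 in AS (2.61, standard error 0.98, adjusted p = 0.156). All 3 had AS libraries wholly above the WT libraries, at few counts.

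Further down, the forkhead factor *Foxm1* had 11, 24 and 17 counts in WT against 23, 46 and 63 in AS, which overlap by 1 library (log2 fold change 1.34, adjusted p = 0.198). *Mki67*, the proliferation marker Ki-67, had 5, 23 and 8 counts in WT against 19, 59 and 19 in AS (1.41, standard error 0.69, adjusted p = 0.265), which overlap. The checkpoint kinase *Bub1b* had 34, 54 and 65 in WT against 194, 75 and 116 in AS (1.35, adjusted p = 0.155), which do not. The anaphase activator *Cdc20* differed by 0.52 (standard error 0.45) and cyclin *Ccna2* by 0.40 (standard error 0.78), and neither passed. At the lower end stood the Aurora kinase *Aurka* at -0.34, the spindle protein *Nusap1* at -0.06 and *Ccnb2* at 0.04, each with a standard error of 0.41 to 0.55. *Ccnb1*, *Bub1*, *Birc5*, *Plk1*, *Cdca8*, *Cenpe*, *Kif2c*, *Ncapg*, *Hmmr* and *Mybl2* were too low to be tested here, with at most 26 counts in any bright tdT library.

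Replication genes were split. Of 16 tested, 10 lay above and 6 below 0, with a median of 0.19. edgeR's quasi-likelihood test called 0 of them, whereas DESeq2 called 1, *Mcm6*, beside 7.76% of all genes. With no adjustment 3 were higher and 1 lower, where 9.98% of all genes were higher, 11.9% lower and 21.8% differed in either direction. The helicase subunit *Mcm6* had 191, 308 and 211 counts in WT against 466, 480 and 392 in AS (log2 fold change 0.91, standard error 0.28, adjusted p = 0.117), and every AS library lay above every WT library. The other subunits *Mcm5* (1.21, standard error 0.45, adjusted p = 0.163) and *Mcm2* (0.90, standard error 0.32, adjusted p = 0.149) also had groups that did not overlap. *Mcm7*, of the same ring, went the other way, with 3228, 1679 and 2042 counts in WT against 955, 843 and 1730 in AS (-0.96, standard error 0.33, adjusted p = 0.141). *Mcm7* is overlapped by *Cops6* and *Ap4m1* on the opposite strand and hosts 3 microRNA genes, and the strand counted by the authors was not stated, so its counts may include reads of other transcripts. *E2f1* was at -0.85 and *Cdt1* at -0.71, both with WT and AS libraries that overlap. *Pcna* (0.19, standard error 0.21), the reductase subunit *Rrm2* (-0.32, standard error 0.72) and thymidylate synthase *Tyms* (0.17, standard error 0.32) had fold changes smaller than their standard errors. *Gins2* had 3 to 5 counts in every bright tdT library and was not tested. Over all 38 genes, 14 had AS libraries wholly above WT libraries and 0 wholly below, where 13.6% and 10.9% of all genes did.

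**Figure D2:**
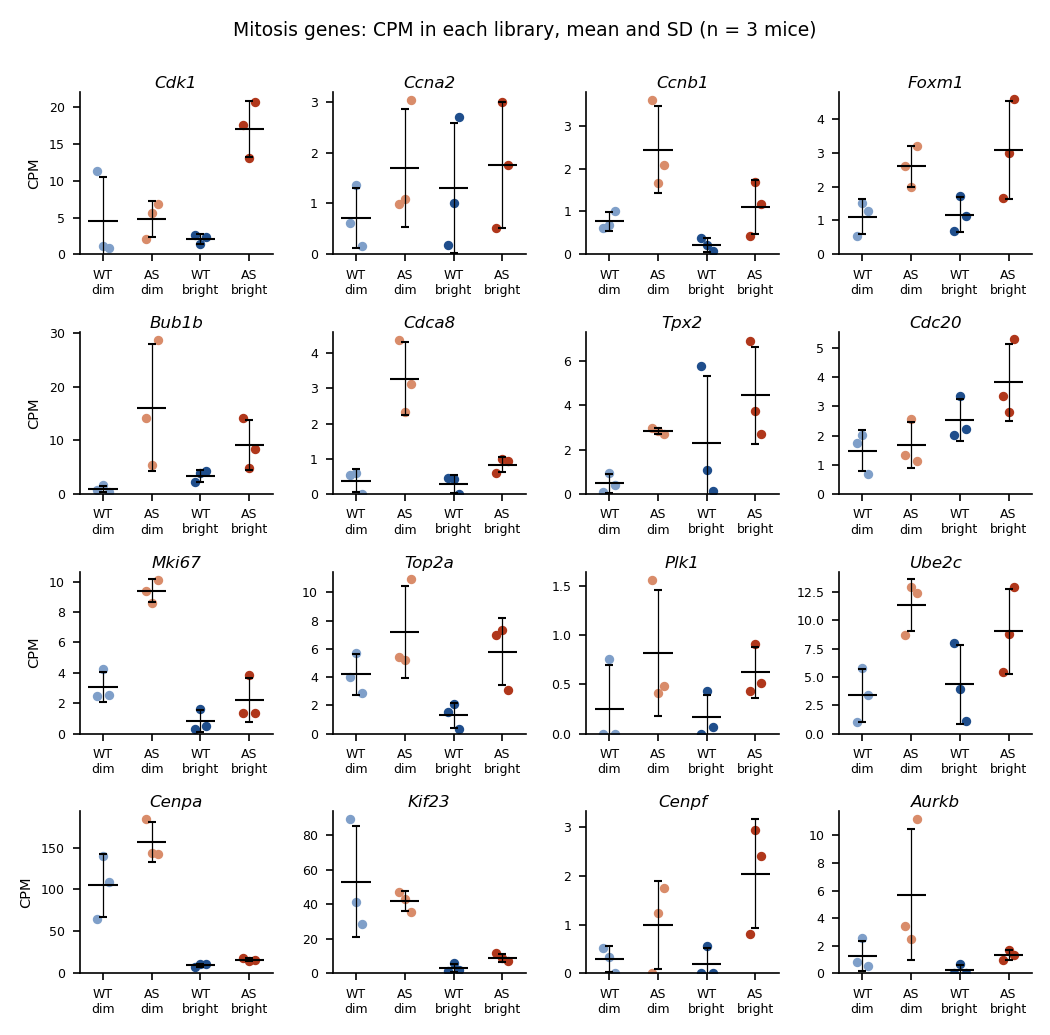
CPM of 16 mitosis genes in each library, by group on the x axis, with points for mice, bars for the mean of 3 and whiskers for the SD. Cdk1 stands at 13.1 to 20.7 CPM in AS-bright tdT libraries against 1.35 to 2.59 in WT-bright tdT, whereas Mki67 is highest in AS-dim tdT, and WT-dim tdT library 1 lies apart for Cdk1 at 11.4 CPM.

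AS over WT within the dim tdT cells gave 3 calls in edgeR's quasi-likelihood test, all of them mitosis genes and all higher in AS. *Bub1b* had 9, 19 and 5 counts in WT-dim tdT against 201, 65 and 361 in AS-dim tdT libraries (log2 fold change 4.06, standard error 0.82, adjusted p = 0.0269 by the same edgeR test). *Cdca8* (borealin), a subunit of the chromosomal passenger complex, had 6, 7 and 0 counts in WT against 62, 28 and 39 in AS (3.09, standard error 0.73, adjusted p = 0.0329). The spindle assembly factor *Tpx2* had 1, 11 and 5 counts in WT against 42, 34 and 34 in AS (2.49, standard error 0.63, adjusted p = 0.0416). In each of the 3, every AS library was above every WT library, and the spread among AS libraries was widest for *Bub1b*, at 5.39 to 28.8 CPM. *Cdca8* is overlapped by an annotated gene on the opposite strand and *Tpx2* by a microRNA gene.

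These were 3 of 41 tested genes, in a comparison where 8.63% of all genes were called, 2.21% higher and 6.42% lower in AS. With the version 3 fit only *Bub1b* was called (adjusted p = 0.0417). DESeq2 called 4, *Bub1b*, *Cdca8* and *Mki67* higher and *Mcm7* lower in AS, beside 15.1% of all genes, and not *Tpx2* (adjusted p = 0.0567). The calls also rested on single libraries: *Cdca8* lost its call whichever library was left out (adjusted p up to 0.132), *Tpx2* kept it only without WT-dim tdT library 2 (adjusted p = 0.0492), and *Bub1b* lost it without WT-dim tdT library 1 or 2 and without AS-dim tdT library 1 or 3 (up to 0.113), although the log2 fold change of *Bub1b* stayed between 3.36 and 4.65. Without AS-dim tdT library 1, 0 of all genes were called, and without AS-dim tdT library 3 just 1 was. Leukocyte markers moved with the genotype, from sums of 9020 to 15593 CPM in WT-dim tdT to 17215 to 19963 CPM in AS-dim tdT libraries, while endothelial markers summed to 741 to 1385 CPM in WT-dim tdT and 232 to 326 CPM in AS-dim tdT libraries. Proximal tubule markers summed to 2054 to 9333 CPM in WT-dim tdT and 34.1 to 615 CPM in AS-dim tdT libraries. With the leukocyte marker mean as a covariate, 0 of the 41 genes and 0 of all 14637 passed the adjusted threshold, and 10 of the 41 passed with no adjustment beside 16.3% of all genes. With that of the proximal tubule markers, the adjusted threshold was again passed by 0 of all genes, and with no adjustment by 2 of the 41 beside 6.18% of all genes. The log2 fold changes with the leukocyte and the proximal tubule covariate were 5.08 and 1.24 for *Bub1b*, 3.60 and 2.53 for *Cdca8* and 1.82 and 2.32 for *Tpx2*.

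Mitosis genes as a list lay above 0 here too. Of 25 tested, 23 had a positive log2 fold change, with a median of 0.87 beside -0.02 over all genes, of which 48.9% lay above 0. With no adjustment 10 were higher and 0 lower, where 10.3% and 15.9% of all genes were. Among the 31 with a row, 28 lay above 0. As in bright tdT, a gene can pass the filter through its AS level alone, so these counts and the direction of the 3 calls describe the list. *Mki67* had 28, 50 and 30 counts in WT against 133, 104 and 127 in AS, that is 3.07 ± 1.0 against 9.38 ± 0.758 CPM (SD, n = 3), with no overlap (log2 fold change 1.57, standard error 0.42, adjusted p = 0.0571). The ubiquitin-conjugating enzyme of the anaphase promoting complex *Ube2c* (1.69, standard error 0.54, adjusted p = 0.0889), cyclin *Ccnb1* (1.65, standard error 0.55, adjusted p = 0.0985) and the kinesin *Cenpe* (1.64, standard error 0.59, adjusted p = 0.119) also had groups that did not overlap. *Mki67* and *Ccnb1* (adjusted p = 0.0444) passed in the fit of all 12 libraries, and *Mki67*, *Ube2c*, *Aurkb* and *Cdca3* with the likelihood ratio test. Of all genes, 14% and 12.3% were called in these 2 fits. *Tpx2* lost its call in the fit of all 12 libraries (adjusted p = 0.121).

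*Cdk1* did not pass in the dim tdT cells, with 130, 14 and 10 counts in WT against 30, 67 and 86 in AS (log2 fold change 0.07, standard error 0.91). Its WT-dim tdT library 1 lay above all 3 AS libraries, and the other WT libraries lay below them. Without library 1 its log2 fold change was 2.2 (adjusted p = 0.151). *Kif23* at -0.38 (standard error 0.41) and the Myb-family factor *Mybl2* at -0.22 (standard error 0.59) were the only mitosis genes below 0 among those tested. *Top2a* (0.73, standard error 0.50), *Foxm1* (1.19, standard error 0.53, adjusted p = 0.196), *Ccna2* (1.20, standard error 0.75) and *Cdc20* (0.13, standard error 0.59) did not pass. *Plk1*, the Polo kinase, was not tested, with 0, 9 and 0 counts in WT against 22, 5 and 6 in AS. *Birc5*, *Kif2c*, *Ncapg* and the replication gene *Gins2* had 3 counts or fewer in each WT-dim tdT library, and in AS-dim tdT they had 14, 14 and 6, 31, 10 and 5, 6, 15 and 5, and 6, 33 and 10 counts.

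Among the replication genes, 11 of 16 lay above 0 with a median of 0.48. edgeR's quasi-likelihood test called 0 of them, and with no adjustment 2 were higher and 2 lower. DESeq2 called *Mcm7*, lower in AS, and *Tk1* passed in the fit of all 12 libraries and *Ccne1* without WT-dim tdT library 2. Of all genes, 15.1%, 14% and 5.23% were called in these 3 fits. Thymidine kinase *Tk1* had 67, 123 and 34 counts in WT against 234, 210 and 214 in AS (log2 fold change 1.38, standard error 0.46, adjusted p = 0.0983). *Mcm6* again had AS libraries wholly above WT libraries, with 251, 269 and 170 against 561, 370 and 445 counts (0.81, standard error 0.29, adjusted p = 0.117), as did *Mcm5* (0.85, standard error 0.40, adjusted p = 0.224), whereas *Mcm2* was at 0.12 (standard error 0.33). Over all 41 genes, 14 had AS libraries wholly above WT libraries and 2 wholly below, where 15% and 16.2% of all genes did. *Ccne1*, the cyclin of the G1 to S transition, was at 1.15 with a standard error of 0.89, since its WT libraries had 3, 166 and 15 counts. *Cdc6* lay at -1.99 (standard error 0.82, adjusted p = 0.169), with 25, 53 and 194 counts in WT against 19, 16 and 41 in AS, and *Mcm7* at -1.24 (standard error 0.39, adjusted p = 0.0848). WT-dim tdT library 3 was the highest for both, with 9116 *Mcm7* counts against 3403 and 3162 in the other WT libraries. *Tyms* was at -0.85 (standard error 0.46, adjusted p = 0.286), *E2f1* at -0.60, *Rrm2* at 0.75 and *Pcna* at 0.08 (standard error 0.18).

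**Figure D3:**
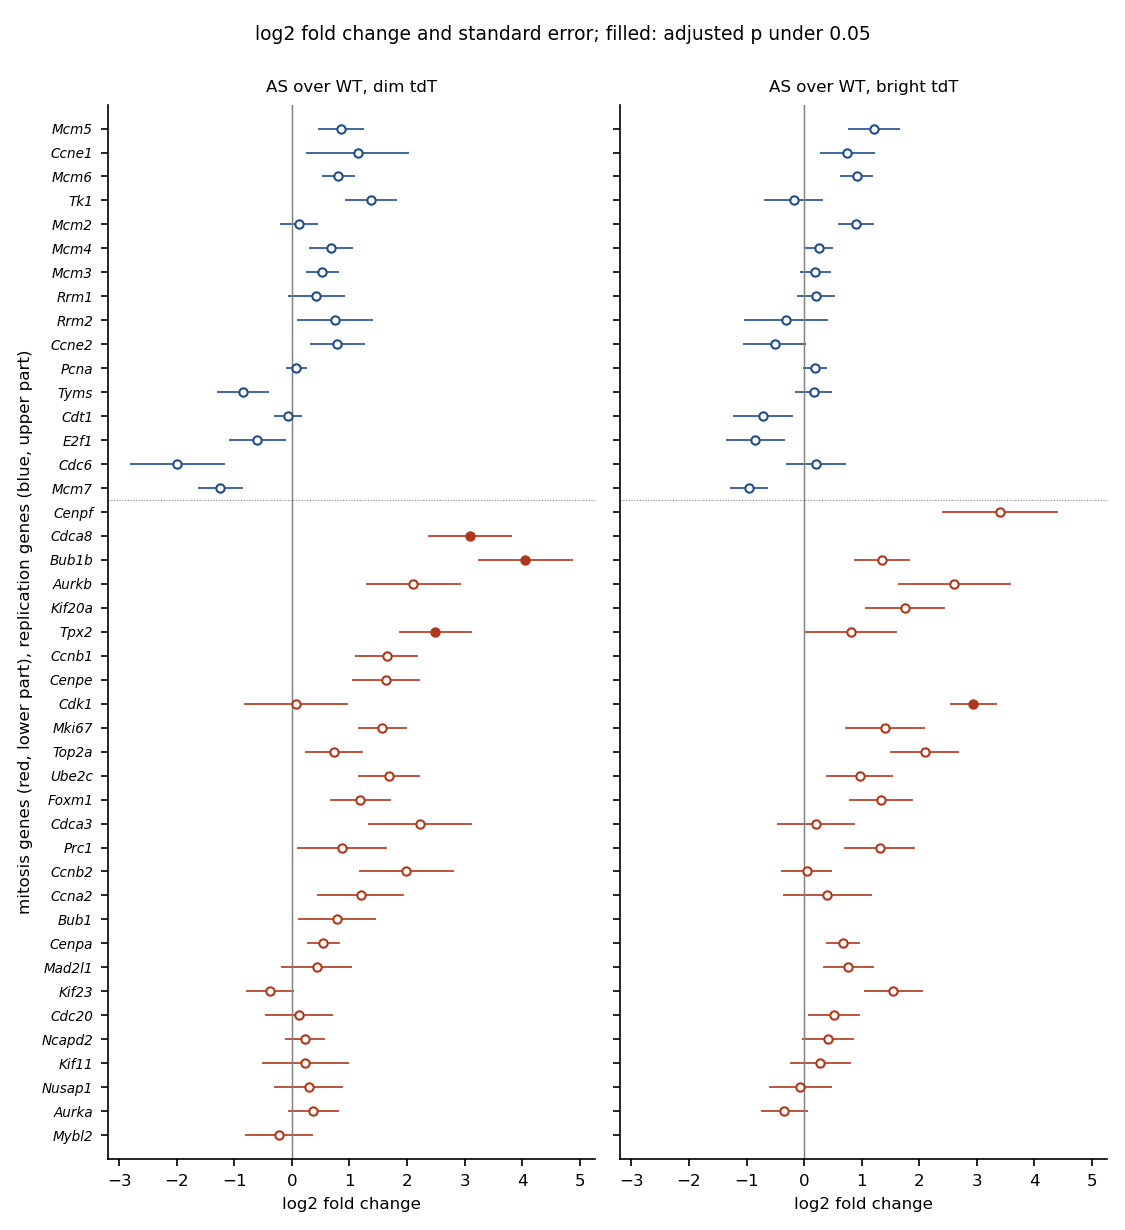
The log2 fold change of AS over WT (x axis) with its standard error for each tested gene, dim tdT on the left and bright tdT on the right, with mitosis genes in red and replication genes in blue. Filled points passed an adjusted p of 0.05: 3 mitosis genes in dim tdT, 1 in bright tdT and no replication gene. Most mitosis genes lie to the right of 0, with 23 of 25 in dim tdT and 20 of 22 in bright tdT.

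Of 20 mitosis genes tested in both subpopulations, 17 lay above 0 in both, 0 below 0 in both and 3 had opposite signs. Of 16 replication genes, 8 lay above 0 in both and 3 below in both, namely *Cdt1*, *E2f1* and *Mcm7*. The dim and bright tdT libraries came from the same 6 mice, so these are not independent counts. Signs were not compared in this way over all genes, and a gene can pass the filter through its AS level alone, so the counts describe the lists. Whether the effect of the knockout differed between the subpopulations was tested as an interaction in all 12 libraries. edgeR's quasi-likelihood test called 0 of 45 genes, and 4 passed with no adjustment, or 9 of 48 without WT-dim tdT library 2 (19.8% of all genes). DESeq2 and edgeR's likelihood ratio test each called 1 gene, *Bub1b*, beside 7.86% and 7.24% of all genes. With the quasi-likelihood test, 3.77% of all genes were called (2.96% higher and 0.815% lower in bright tdT). Of all genes, 18.5% passed that test with no adjustment (11.5% and 6.95%) and 55.9% lay above 0. *Cdk1* differed by 2.91 on the log2 scale in the direction of bright tdT (standard error 1.04, adjusted p = 0.15), *Kif23* by 1.95 (standard error 0.69, adjusted p = 0.146) and the kinesin *Kif20a* by 2.47 (standard error 1.02, adjusted p = 0.206), and *Bub1b* by -2.67 (standard error 1.01, adjusted p = 0.17). The difference between subpopulations in the *Cdk1* and *Bub1b* responses was thus not shown. Without WT-dim tdT library 1 that of *Cdk1* was 0.79 (adjusted p = 0.739). *Cdca3* (-1.98) and *Ccnb2* (-1.91) followed at the lower end. The replication genes ranged from -1.52 for *Tk1*, -1.27 for *Ccne2* and -1.04 for *Rrm2* to 0.81 for *Mcm2*, 1.05 for *Tyms* and 2.24 for *Cdc6*, with medians of -0.19 for replication, 0.18 for mitosis and 0.13 for all genes.

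**Figure D4:**
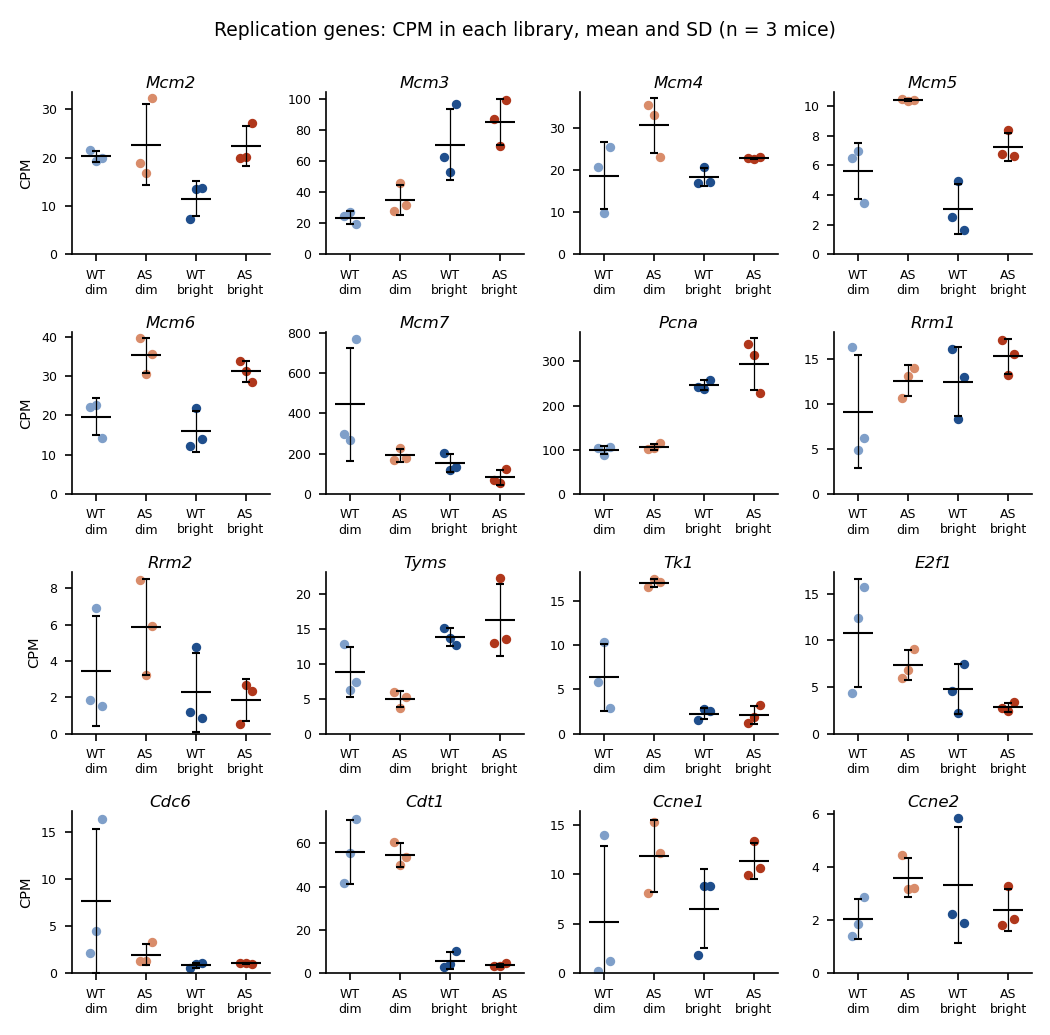
CPM of 16 replication genes in each library, by group on the x axis, with points for mice, bars for the mean of 3 and whiskers for the SD. Pcna and Mcm3 are higher in bright tdT libraries and Cdt1 in dim tdT libraries of both genotypes, while Mcm6 is at 28.5 to 39.6 CPM in AS and 12.1 to 22.7 CPM in WT libraries.

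Bright tdT over dim tdT cells within a genotype compares the 2 sorted populations of the same mice. In both genotypes the clamp *Pcna* and the helicase subunit *Mcm3* were higher in bright tdT cells, and the licensing factor *Cdt1*, *Mcm7*, *Cenpa* and *Kif23* were higher in dim tdT cells. In WT, 8 of 35 tested genes were called, 3 higher and 5 lower in bright tdT, beside 25.3% of all genes (13.8% higher and 11.5% lower). In AS, 21 of 44 were called, 6 higher and 15 lower, beside 55.1% of all genes (28.6% and 26.5%). With no adjustment, 12 of 35 genes in WT and 21 of 44 in AS passed, where 37.4% and 60.1% of all genes did. The share of the cell cycle genes called was thus no larger than that of all genes. In WT, 6 genes had bright tdT libraries wholly above and 9 wholly below the dim tdT libraries, where 22.2% and 19.7% of all genes did, and in AS 6 and 19, where 31.9% and 30.5% did.

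*Pcna* had 1175, 1041 and 1255 counts in WT-dim tdT against 3832, 3344 and 3929 in the WT-bright tdT libraries (log2 fold change 1.37, standard error 0.22, adjusted p = 0.0017 by the same edgeR test), and in AS it had 1444, 1257 and 1439 against 4668, 4828 and 3130 (1.45, standard error 0.19, adjusted p = 0.000125). *Mcm3* rose by 1.63 in WT (standard error 0.33, adjusted p = 0.00615) and by 1.27 in AS (standard error 0.24, adjusted p = 0.00117). *Tyms* was higher in bright tdT in AS (1.70, standard error 0.34, adjusted p = 0.00192) and did not pass in WT (0.71, standard error 0.42), nor did *Ccne2* (0.72). *Mcm4*, *Mcm6* and *Rrm1* passed in neither genotype, and their log2 fold changes lay between -0.43 and 0.52. In the other direction, *Cdt1* had 476, 655 and 844 counts in WT-dim tdT against 48, 58 and 158 in WT-bright tdT libraries (-3.22, standard error 0.49, adjusted p = 0.00138), and in AS 859, 601 and 670 against 46, 51 and 63 (-3.87, standard error 0.25, adjusted p = 6.37e-07). *Cdt1* is overlapped on its own strand by an annotated protein-coding gene, *Gm20388*, and the counts cannot separate them.

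*Mcm7* was lower in bright tdT in WT (-1.49, adjusted p = 0.0348) and AS (-1.21, adjusted p = 0.00505). The WT call ended without WT-dim tdT library 3, where *Mcm7* was at -0.81, without WT-bright tdT library 2 or 3 (adjusted p up to 0.129) and with the proximal tubule covariate. *Cdc6* was lower in WT (-3.10, standard error 0.88, adjusted p = 0.0296) and *Tk1* (-3.03, standard error 0.36, adjusted p = 5.43e-05), *Rrm2* (-1.68, standard error 0.54, adjusted p = 0.0232) and *E2f1* (-1.39, standard error 0.34, adjusted p = 0.00642) in AS. *Cdc6* passed in 11 of 15 alternatives and lost its call without WT-dim tdT library 3 (-1.88) and without any one of the WT-bright tdT libraries (adjusted p up to 0.0971). *Rrm2* passed in 9 and *E2f1* in 14 of 15. The median of the 16 replication genes was -0.42 in WT and -0.48 in AS, beside -0.04 and 0.02 for all genes, of which 48.7% and 50.5% lay above 0.

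*Cenpa* had 745, 1661 and 1293 in WT-dim tdT and 122, 154 and 162 in WT-bright tdT libraries (log2 fold change -3.38, standard error 0.37, adjusted p = 0.000234), and 2606, 1734 and 1781 against 243, 228 and 226 in AS (-3.27, standard error 0.20, adjusted p = 4.41e-07). *Kif23* had 1018, 490 and 337 against 21, 81 and 31 counts in WT (-4.09, standard error 0.62, adjusted p = 0.00141) and 665, 518 and 446 against 159, 136 and 96 in AS (-2.20, standard error 0.25, adjusted p = 4.74e-05). Dim and bright tdT libraries did not overlap for either gene, and no annotated gene overlaps them. Both calls held under all 15 alternatives that gave a fold change, as did those of *Pcna*, *Mcm3* and *Cdt1*.

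In AS, where most calls were made, *Mki67* was lower in bright tdT. It had 133, 104 and 127 counts in AS-dim tdT and 19, 59 and 19 in AS-bright tdT libraries (-2.07, standard error 0.42, adjusted p = 0.00198). *Cdca3*, a trigger of mitotic entry, fell by 3.67 on the log2 scale (adjusted p = 0.00488), *Cenpe* by 2.6 (adjusted p = 0.01), *Aurkb* by 2.10 (adjusted p = 0.019) and *Cdca8* by 1.97 (adjusted p = 0.00446), and *Nusap1*, *Aurka* and *Mad2l1* by 1.57, 1.02 and 0.93. *Cdk1* was higher in AS-bright tdT, with 30, 67 and 86 against 241, 200 and 284 counts (1.82, standard error 0.39, adjusted p = 0.00298), as were *Kif20a* (1.74, adjusted p = 0.0447) and *Cdc20* (1.18, adjusted p = 0.049). *Kif20a* passed in 6 of 14 alternatives (adjusted p up to 0.189), *Cdc20* in 4, *Aurka* (up to 0.202) and *Mad2l1* in 7, *Aurkb* (up to 0.0772) and *Nusap1* in 12, and *Cenpe* in 14 of 15. Without AS-dim tdT library 3, *Aurkb* was at -1.18 and *Aurka* at -0.66, and both lost their call. Without AS-bright tdT library 2, *Cenpe* was at -4.69, and without AS-bright tdT library 3 it lost its call (adjusted p = 0.0529). *Top2a* (-0.31, adjusted p = 0.568), *Ccna2* (0.08, adjusted p = 0.927) and *Foxm1* (0.23, adjusted p = 0.68) did not pass. In WT, *Bub1b* was higher in bright tdT (1.89, standard error 0.61, adjusted p = 0.0499, past the threshold in 4 of 15 alternatives). *Ccnb2* (2.55, standard error 0.84, adjusted p = 0.0528) and *Tpx2* (2.33, standard error 1.17, adjusted p = 0.177) did not pass. *Mki67* (-1.88, adjusted p = 0.0624) and *Top2a* (-1.65, adjusted p = 0.0886) did not pass in WT either. With the mouse as a block *Mki67*, *Top2a* and *Ccnb2* did (adjusted p = 0.0324, 0.0493 and 0.0498), and in AS *Cdc20* and *Mad2l1* then missed the threshold (0.0617 and 0.0567).

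**Figure D5:**
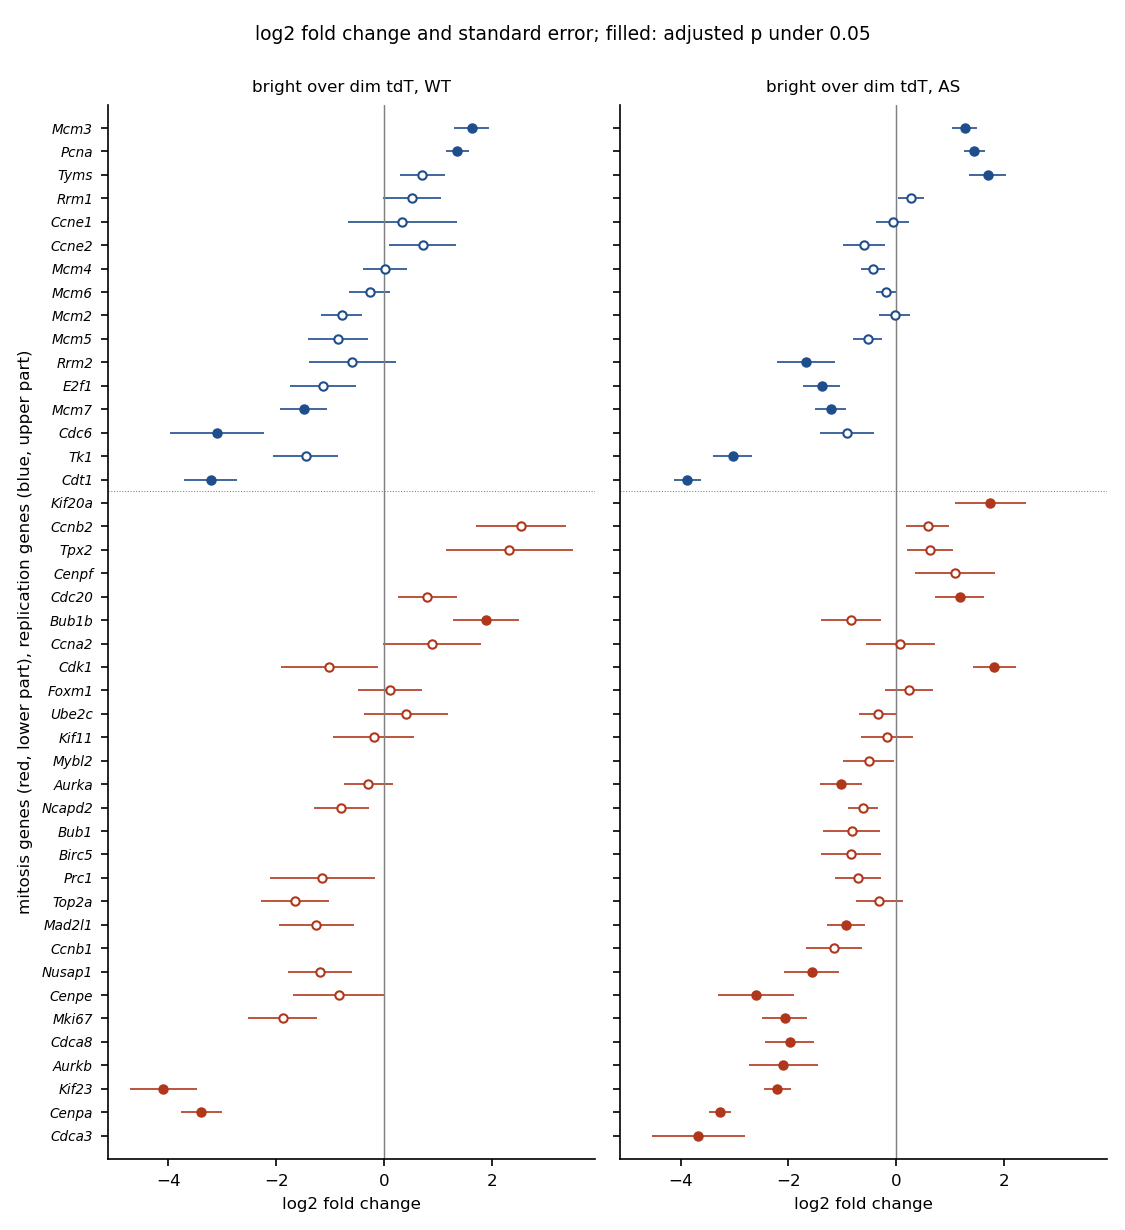
The log2 fold change of bright over dim tdT (x axis) with its standard error for each tested gene, WT on the left and AS on the right, with mitosis genes in red and replication genes in blue. Filled points passed an adjusted p of 0.05: 3 higher and 5 lower in WT, 6 higher and 15 lower in AS. Pcna and Mcm3, higher in bright tdT, and Cdt1, Mcm7, Kif23 and Cenpa, lower, passed in both genotypes.

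The leukocyte markers followed the same split, and all 13 markers tested were lower in bright tdT, at medians of -7.54 (WT) and -7.7 (AS) on the log2 scale. Of the variance of their mean, 99.5% lay between dim and bright tdT libraries in WT and 99.6% in AS, so that the leukocyte signal and the subpopulation cannot be told apart in these comparisons. The part of leukocyte RNA in the dim tdT values of *Cenpa*, *Kif23*, *Cdt1* and *Mki67* was not tested.

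Other genes of the same processes were listed to set the 50 genes beside. Of 51 other mitosis genes, 34 were tested in AS over WT in dim tdT and 4 were called, all higher, with a list median of 0.40, where 8.63% of all genes were called and 2.21% were called higher. They were the kinesin *Kif4*, with 0, 1 and 0 counts in WT against 31, 18 and 15 in AS (adjusted p = 0.0302), the spindle pole protein *Aspm*, with 1, 0 and 8 against 43, 47 and 22 (log2 fold change 3.41, standard error 0.87, adjusted p = 0.0373), separase *Espl1*, with 10, 18 and 10 against 52, 141 and 122 (2.89, standard error 0.66, adjusted p = 0.0361), and the spindle protein *Ckap2* (2.68, adjusted p = 0.0431). *Espl1* passed in 7 of 16 alternatives, *Kif4* in 6, *Aspm* in 5 and *Ckap2* in 3 of 15, and 0 of all genes passed with either marker covariate or without AS-dim tdT library 1. These genes, too, can pass the filter through their AS level alone, so the direction of the 4 calls describes the list. DESeq2 called 5 in dim tdT, 4 higher and 1 lower, beside 15.1% of all genes. In bright tdT edgeR's quasi-likelihood test called 0 of 33 and DESeq2 2, *Espl1* and *Kif22*, beside 0.452% and 7.76% of all genes. With no adjustment 8 were higher and 1 lower, beside 9.98% and 11.9% of all genes, and the median was 0.44. Of 38 other replication genes tested in bright and 39 in dim tdT, the same edgeR test called 0. DESeq2 called 1 in each, *Chaf1b* and *Uhrf1*, beside 7.76% and 15.1% of all genes. With no adjustment 4 were higher and 3 lower in bright tdT, and 2 higher and 3 lower in dim tdT, where 10.3% and 15.9% of all genes were, with medians of 0.00 and 0.19. Between bright and dim tdT cells, 4 other mitosis genes were higher and 8 lower of 25 in WT, and 5 and 14 of 41 in AS, and 1 other replication gene was higher and 3 lower of 35 in WT, and 6 and 9 of 38 in AS. Of all genes, 13.8% were higher and 11.5% lower in WT, and 28.6% and 26.5% in AS. The replication fork protein *Timeless* was higher in bright tdT (3.56 in WT and 4.64 in AS), and *Lmnb1*, the lamin B1 gene (-4.54 and -3.75), and *Racgap1*, the partner of Kif23 (-3.63 and -3.25), were lower, all with an adjusted p of 0.00167 or less.

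Genes that govern entry into the cycle were listed as well. *Myc* rose in AS in bright tdT, with 156, 159 and 183 against 806, 845 and 1281 counts (log2 fold change 2.57, standard error 0.28, adjusted p = 0.0225), and in dim tdT (1.19, standard error 0.30, adjusted p = 0.0463), where the kinase *Cdk6* also rose (1.03, adjusted p = 0.0485). In bright tdT *Myc* missed the threshold with the version 3 fit (adjusted p = 0.0517), the proximal tubule covariate (0.0664) and without WT-bright tdT library 3 (0.0664), AS-bright tdT library 1 (0.0716) or AS-bright tdT library 3. In dim tdT, *Myc* passed in 5, *Cdk6* in 4, *Cdkn2d* in 8 and *Gas1* in 9 of 16 alternatives. Among the inhibitors, *Cdkn2d* (p19-INK4d) rose in dim tdT, with 407, 373 and 439 counts in WT against 964, 1031 and 1180 in AS (1.22, standard error 0.22, adjusted p = 0.023). *Gas1* fell by 1.52 (adjusted p = 0.0283). *Cdkn1a* (p21), the p53-induced inhibitor, was at 0.67 in bright (adjusted p = 0.154) and 0.78 in dim tdT (adjusted p = 0.121), and *Cdkn1b* (p27) at 0.85 (adjusted p = 0.163) and 0.81 (adjusted p = 0.267). *Cdkn1c* (p57) was at 1.10 (adjusted p = 0.0998) and -0.72. *Cdkn2c* (0.54 and -0.52) did not pass in either, and *Cdkn2b* was tested in dim tdT alone (1.18, standard error 1.06). *Cdkn1a* was higher in bright than dim tdT cells in both genotypes (1.64 in WT, adjusted p = 0.00142, and 1.5 in AS, adjusted p = 0.00106), and *E2f2*, an activator E2F, was lower (-6.28 in WT, adjusted p = 8.76e-05, and -4.96 in AS, adjusted p = 5.73e-07). In AS, *Cdkn2d* was also lower in bright tdT (-1.70, adjusted p = 0.000204), and *Cdkn2c* (1.26, adjusted p = 0.0198) and *Cdkn1c* (1.96, adjusted p = 0.000263) were higher.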

How the data were processed

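RNA-seq libraries of 3 WT and 3 AS mice were analysed from 1 table for each sorted subpopulation. The authors aligned reads with STAR 2.6.0c to GRCm38.p5 (annotation: Gencode M16), and the deposited counts are raw reads per gene from STAR. The kit is stranded, but the strand counted was not given in the sources used here. RPKM values deposited by the authors were not used, since for these genes their lengths were 0.649 to 3.68 times (median 1.74) the merged exon length of Gencode M21, which gave the lengths and coordinates here. The deposited fold changes, p-values and FDR hold the authors' own AS over WT tests and were not used either.

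The 92 ERCC spike-ins were left out. Counts were tested by the version 4 quasi-likelihood test of edgeR 4.0.16 (R 4.3.3), after TMM normalization and filterByExpr, with p-values Benjamini-Hochberg adjusted over every tested gene and a threshold of 0.05. This version was chosen over the version 3 fit after the calls of both had been seen. Bright over dim tdT and the interaction used the 15768 genes in both tables. Alternatives were RLE, DESeq2 1.42.0, a likelihood ratio test, other filters, marker covariates, a replicate block, all 12 libraries in one fit and leaving out each library. Scripts were tested on simulated data. Replicates are separate mice, and their counts differed by a chi-square of 29.5 to 104 per degree of freedom. The labels give both libraries of a mouse 1 number, and their deviations from the group means correlated at 0.102 to 0.274 in WT and 0.0796 to 0.385 in AS.

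Genes and lists were chosen with earlier results of these data known. Named are 15 genes fixed by name, genes called in AS over WT, the 3 highest and 3 lowest per list and comparison, up to 3 called genes per direction of other lists, *Cdkn* genes and genes with 3 counts or fewer in a group, and others chosen after their values were seen. Of 50 genes, 26 overlap no other annotated gene.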

Additional observations from a re-analysis of the deposited data

Results flagged for a closer look

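The effect of the knockout differed between bright and dim tdT cells for 2 genes of the cycle lists, by the interaction term of edgeR's quasi-likelihood test over all 12 libraries. They were 1 of 13 G1 cyclins, kinases and E2F factors tested and 1 of 18 inhibitors and pocket proteins. Of 16 replication, 29 mitosis, 39 other replication and 42 other mitosis genes tested, 0 were called. Of all 15084 genes, 3.77% were called. *Ccnd1*, the D-type cyclin of G1, had 563, 281 and 594 counts in WT-dim tdT and 241, 158 and 254 in AS-dim tdT libraries, but 1742, 1093 and 1318 in WT-bright tdT and 2689, 3054 and 2890 in AS-bright tdT libraries. AS over WT was -1.32 in dim (adjusted p = 0.0581) and 1.06 in bright tdT cells (adjusted p = 0.0547), neither past the threshold, and the difference was 2.43 on the log2 scale (standard error 0.40, adjusted p = 0.00554), with an adjusted p of at most 0.0238 over its alternatives. The 14 endothelial markers moved the same way, all 14 above 0 and 10 called, with a median difference of 2.59, and medians of -2.22 in dim and 0.39 in bright tdT cells. Their part in the *Ccnd1* value was not tested. *Cdkn1c* (p57), an inhibitor of cyclin-dependent kinases that podocytes also express, differed by 1.87 (standard error 0.48, adjusted p = 0.0467), with 9.04 ± 1.11 against 14.6 ± 4.91 CPM (SD, n = 3) in AS-dim and WT-dim tdT and 35.3 ± 10.9 against 15.6 ± 3.20 CPM (SD, n = 3) in AS-bright and WT-bright tdT libraries. Its adjusted p was under 0.05 in 4 of 21 alternatives and ranged from 0.00875 to 0.138. Podocyte markers, of which it is one, moved the same way, with 7 of 8 above 0 and 6 called higher in bright tdT, a median difference of 2.14, and medians of -1.37 in dim and 0.90 in bright tdT cells. They summed to 1411 to 1596 CPM in AS-bright and 999 to 1272 CPM in WT-bright tdT libraries, and their part in the *Cdkn1c* value was not tested.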

How the results depend on the processing

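In AS over WT in bright tdT, the 1 call became 3 with DESeq2, 4 with the likelihood ratio test and 0 with the proximal tubule covariate, the replicate block, all 12 libraries in one fit and edgeR's version 3 fit, which was added after the data had been seen (*Cdk1* adjusted p = 0.0517). Of all genes, 0.452% were called in the reported fit, 7.76% with DESeq2, 6.23% with the likelihood ratio test, 0.111% with the block, 0.922% with all libraries and 0 genes with the proximal tubule covariate and the version 3 fit. In dim tdT, the 3 calls became 4 with DESeq2, 7 with the likelihood ratio test, 5 with all 12 libraries, 1 with the version 3 fit, and 0 with the leukocyte covariate, the proximal tubule covariate and the replicate block. Of all genes, 8.63% were called as reported, 15.1%, 12.3%, 14% and 3.98% with the first 4 of these, 3.38% with the block and 0 genes with either covariate. With each library left out in turn, the calls numbered 0 to 1 in bright and 0 to 2 in dim tdT, beside 0% to 1.88% and 0% to 11.9% of all genes. For bright over dim tdT they numbered 5 to 9 in WT and 13 to 21 in AS, beside 17.3% to 23.3% and 45.6% to 52.2%. The interaction had 0 to 0, beside 1.65% to 5.6%. WT fell to 5 without WT-dim or WT-bright tdT library 3, where 19.8% and 17.3% of all genes were called. AS fell to 13 without AS-bright tdT library 3, where 45.9% were. For the interaction, DESeq2 and the likelihood ratio test called 1, beside 7.86% and 7.24% of all genes. With the leukocyte covariate the calls of bright over dim tdT were 0 in WT and 0 in AS, where it and the subpopulation could not be separated, so that no fold change is given. The replicate block, which pairs dim and bright tdT libraries of a mouse, gave 11 calls in WT and 19 in AS, beside 31.2% and 55.2% of all genes, and 0 for the interaction. Between genotypes the numbers of the mice pair nothing. Of called fold changes, 0 reversed their sign.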
